A study of Mus musculus with 8 samples.

Results

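The cytosolic ribosomal protein genes were followed across 4 groups of dendritic cells sorted from mouse thymus. The members were the genes on the array whose mouse symbol begins with Rpl or Rps and a digit, together with Rplp0, Rplp1, Rplp2 and Rpsa, without the Rps6k kinase genes and without pseudogene entries. Of the 37208 genes or accessions on the array, 86 met this rule, which uses no measured value. All 86 also passed the filter on dim probes, which kept 24171 genes or accessions. Standard ribosomal proteins made up 76 of the members, with 30 of the small subunit, 43 of the large subunit and 3 of the stalk (Rplp0, Rplp1 and Rplp2). The remaining 10 were the paralogs Rpl3l, Rpl7l1, Rpl10l, Rpl22l1, Rpl36al, Rpl39l, Rps4l and Rps27l, the binding protein gene Rps19bp1 and the retrogene Rps23rg1. Rps23 and Rps27rt were not matched.

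The sort used Sirpa, an inhibitory surface receptor carried by one dendritic cell subset, together with maturation status. RNA was amplified, labelled with Cy3 and hybridised to 8 one-colour Agilent arrays, 2 per group, here named by the number in their title: Sirpa-positive immature (3 and 5), Sirpa-positive mature (1 and 6), Sirpa-negative immature (4 and 7) and Sirpa-negative mature (2 and 8). The labels give no strain, genotype, age or treatment beyond the sort, and no sort marker other than Sirpa. Whether both arrays of a group had their own mice or sort is not stated in the labels, so p-values reflect just the spread among these samples, possibly a technical one.

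A ribosome joins a small subunit, which reads the messenger RNA, to a large subunit, which forms the peptide bonds, and each is built from ribosomal RNA and many proteins. Most ribosomal protein genes are expressed in every cell, at high levels and in near-equal amounts. Their transcripts usually begin with a C followed by a run of pyrimidines, the 5′ terminal oligopyrimidine (TOP) motif, through which the mTOR pathway controls their translation. Some members have paralogs with tissue-restricted or inducible expression, such as Rpl3l of striated muscle and Rps27l, a target of p53. In dendritic cells, maturation is accompanied by a large change in protein synthesis.

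The starts of a few members are shown first, to set standard genes beside the paralogs on which the results turn. Each line holds 30 bases of the coding strand from RefSeq (GRCm38.p6), 5′ to 3′, with the annotated transcription start at base 16. Capitals mark runs of at least 5 pyrimidines that begin with C. Rps27l and Rpl3l each have 2 annotated starts, and the first listed is shown.

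Rps6 (chr4:86857353-86857382, minus strand): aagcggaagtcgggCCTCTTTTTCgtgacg
Rpl14 (chr9:120571502-120571531, plus strand): gggcgggCCCTCTCTCTTCTCgctgagcgc
Rpl28 (chr7:4792950-4792979, plus strand): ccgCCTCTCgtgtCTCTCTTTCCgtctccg
Rps27 (chr3:90213634-90213663, minus strand): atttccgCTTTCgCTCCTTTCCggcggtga
Rps27l (chr9:66946071-66946100, plus strand): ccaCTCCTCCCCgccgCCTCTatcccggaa
Rpl39 (chrX:37085208-37085237, minus strand): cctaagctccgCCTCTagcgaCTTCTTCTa
Rpl39l (chr16:10170213-10170242, plus strand): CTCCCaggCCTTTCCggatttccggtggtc
Rpl22l1 (chr3:28805493-28805522, plus strand): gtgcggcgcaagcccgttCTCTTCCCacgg
Rpl3l (chr17:24727811-24727840, plus strand): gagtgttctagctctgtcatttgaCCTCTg

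In Rps6, Rpl14, Rpl28 and Rps27 a pyrimidine run spanned the annotated start, in Rpl39 it ended there, and in Rps27l, Rpl39l, Rpl22l1 and Rpl3l the start lay outside any such run. RefSeq windows were matched for 65 of the 86 members. The coding strand was searched for a C at the annotated start that opened at least 5 pyrimidines without a break. Bases before the start were not considered, so the run could have begun upstream. Such a run from the start was found in 13 of the 56 standard members with a window (23.2%), in 0 of 9 other members and in 3.01% of the 27025 genes of the table. Within 20 bases on either side of the start such a run was common everywhere, in 76.8% of standard members, 77.8% of the others and 49.9% of all genes. The letters CCGGAAG, the core recognised by ETS family factors, were present on either strand of the 300-base window (250 bases before the start) in 42.9% of standard members, 22.2% of the others and 9.93% of all genes. These are matches of letters to annotated starts, some of which are offset, and the arrays did not measure start sites.

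Levels are the log2 ratio of the scanner software's processed signal to the 75th percentile of that signal on the same array, so each array was scaled to its own signal and total RNA per cell was not measured. That percentile ran from 147 to 313 intensity units, with the lowest value on Sirpa-positive mature array 6, and 52.9% to 65.5% of spots were well above background. The arrays lay in 2 rows of 1 slide, each row holding 1 array of every group (arrays 1, 2, 5 and 7 in the first). The sort labels were borne out by marker lists. Of 20 maturation genes, 18 were higher in mature than immature Sirpa-positive cells and 19 in Sirpa-negative cells, and 12 of 14 genes of type 2 dendritic cells were higher and 11 of 11 genes of type 1 dendritic cells lower in immature Sirpa-positive cells than in their Sirpa-negative counterparts. A gene was called where its adjusted p was under 0.05 (limma, all 8 arrays in 1 fit, Benjamini-Hochberg over all 24171 genes). Beside these marker counts, 4.36% of all genes were called higher with maturation in Sirpa-positive and 9.18% in Sirpa-negative cells. Between the immature subsets 7.21% of all genes were called higher and 4.4% lower.

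The standard ribosomal protein genes moved mostly together between arrays. Relative to the median of the members on each array, none (0) of these 76 genes was called in any comparison. With 2 arrays per group this does not show that they changed equally. Their median level was 6.26 and 6.41 on Sirpa-positive immature arrays 3 and 5, and 6.86 and 6.78 on Sirpa-negative immature arrays 4 and 7. On the mature arrays it was 6.32 and 6.66 in Sirpa-positive cells (1 and 6) and 6.79 and 6.68 in Sirpa-negative cells (2 and 8). The immature groups did not overlap, and the Sirpa-positive mature arrays lay farther apart than the arrays of any other group. The SD of the median over all 86 members between arrays of a group, pooled over groups, was 0.15.

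**Figure D1:**
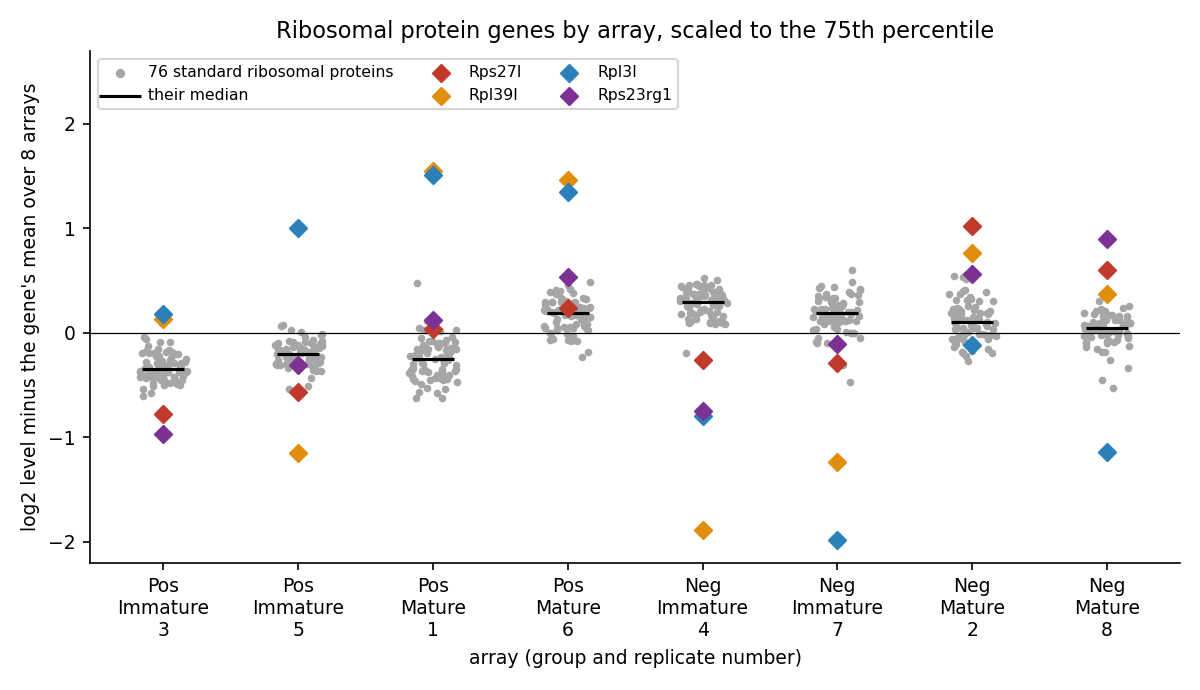
Log2 level of each member minus its own mean over the 8 arrays (y axis), by array (x axis, group and replicate number). Grey points are the 76 standard ribosomal protein genes and black bars their medians, which are lowest on the 2 Sirpa-positive immature arrays and Sirpa-positive mature array 1. Coloured diamonds are Rps27l, Rpl39l, Rpl3l and Rps23rg1, which lie outside the grey points on several arrays.

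The comparison of Sirpa-positive with Sirpa-negative immature cells asked how the subsets differ before maturation. All 76 standard members had estimates below 0, with a median of -0.52 on the log2 scale and a range from -0.88 to 0.00, beside a median of -0.11 over all genes tested. The levels of 73 of the 76 standard members were lower on both Sirpa-positive arrays than on either Sirpa-negative array, as were 36.3% of all genes. One standard member, Rpl14, passed the test as lower, which was passed by 4.4% of all genes. Among all 86 members, 1 was called lower and 1 higher (Rpl3l, described with the paralogs), where 7.21% of all genes were called higher. Without adjustment for the number of genes, 25 of the 76 standard members had p under 0.05, as did 5946 of the 24171 genes.

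Rpl14, a large subunit protein, stood at 4.995 and 5.239 in Sirpa-positive and at 5.855 and 5.915 in Sirpa-negative immature cells. The difference was -0.77 ± 0.199 (log2, SE, n = 2 arrays per group; limma adjusted p = 0.0496, the range over the alternatives being 0.0173 to 0.434). The call lay at the threshold, and it was lost when any 1 of the 8 arrays was left out, at differences of -0.89 to -0.65. Relative to the median of the members on each array, Rpl14 differed by -0.30 ± 0.228 (limma adjusted p = 0.434). It thus did not pass as different from the other members.

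Among the lower members with the smallest p that did not pass was Rpl4, at -0.73 ± 0.230 (limma adjusted p = 0.0945). The estimate farthest below 0 belonged to Rpl17, at -0.88 ± 0.293 (limma adjusted p = 0.114), and it passed where mature array 1 or 6 of the Sirpa-positive subset was left out. Nearest to 0 among standard members was Rps19, mutated in Diamond-Blackfan anaemia, with -0.00 ± 0.315, for which an outlier spot left array 5 without a value.

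Members with separate roles follow. In the small subunit, Rps6, which is phosphorylated downstream of mTOR, stood at 6.42 and 6.54 in Sirpa-positive and at 7.07 and 6.93 in Sirpa-negative immature cells, a difference of -0.52 ± 0.277. Rpsa, also known as a laminin receptor, differed by -0.60 ± 0.225, Rps3, which lines the messenger RNA entry channel, by -0.46 ± 0.237, and Rps27a, made as a fusion with ubiquitin, by -0.66 ± 0.333. None of the 30 small subunit genes was called, and their median was -0.54. In the large subunit the median of 43 genes was -0.48. Rpl5 and Rpl11, which bind the 5S ribosomal RNA and can inhibit Mdm2, differed by -0.53 ± 0.265 and -0.15 ± 0.186, Rpl13a, also part of an interferon-responsive translation complex, by -0.74 ± 0.318, and Rpl10, which completes the large subunit at the end of its assembly, by -0.77 ± 0.347. The stalk proteins, which recruit elongation factors, differed by -0.40 ± 0.208 (Rplp0), -0.64 ± 0.237 (Rplp1) and -0.41 ± 0.248 (Rplp2). No named gene of this paragraph passed the test.

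**Figure D2:**
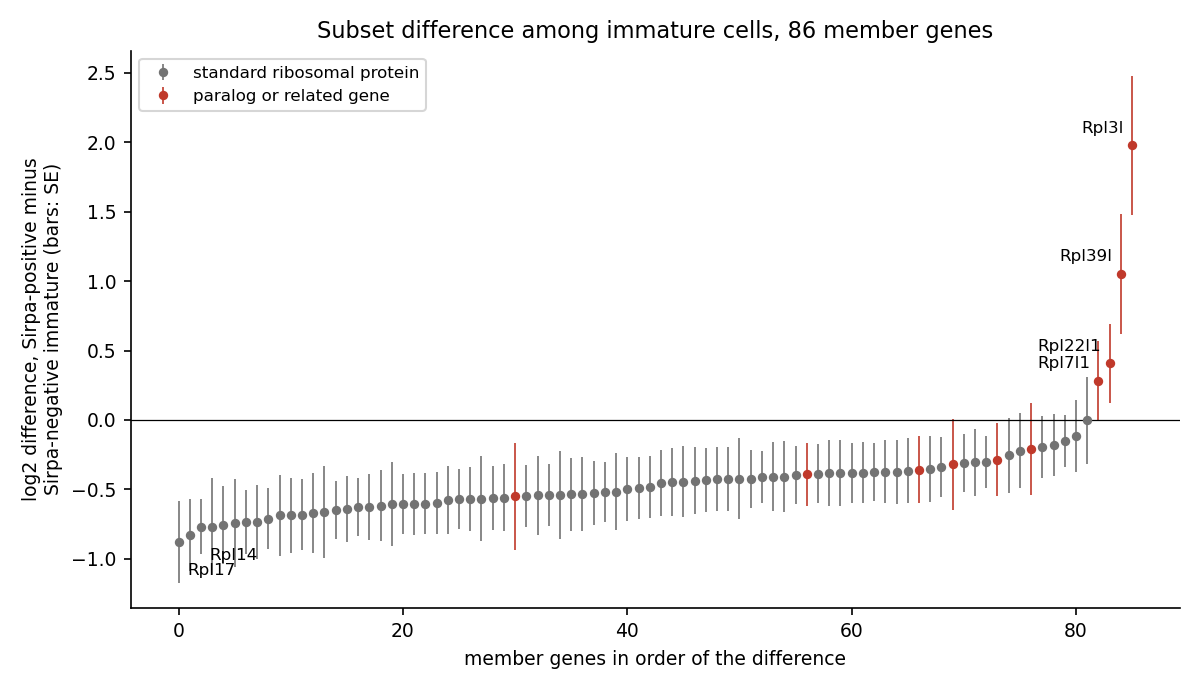
Log2 difference, Sirpa-positive minus Sirpa-negative immature cells, of the 86 members (y axis, bars are SE, n = 2 arrays per group), in rising order (x axis). Grey points are standard ribosomal proteins, which lie between -0.88 and 0.00, and red points are the other 10 members, of which Rpl3l (1.98) and Rpl39l (1.05) lie highest.

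The size of this common difference depended on how the arrays were scaled. Scaling to the array median or 90th percentile gave medians for the standard members of -0.46 and -0.46. Quantile normalization gave -0.14, cyclic loess -0.15, normexp background correction with quantile normalization -0.14 and the authors' deposited values -0.15, with 66 to 67 of the 76 below 0 and none (0) called under these 4. Within the first slide row the median was -0.39 and within the second -0.63 under the main scaling. The sign of the median difference was thus the same in both rows and under all 6 other scalings of whole arrays. Its size was not, and the immature groups were not always separated. In the authors' values the median level over all members was 14.15 and 14.22 on Sirpa-positive and 14.3 and 14.18 on Sirpa-negative immature arrays. With normexp it was 14.13 and 14.21 against 14.28 and 14.16. Under the array median, 90th percentile, quantile and cyclic loess scalings these groups did not overlap.

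Other bright genes moved with the members. The mean signal of 743 other genes or accessions lay at or above the lower quartile of the standard members. Of these, 709 had estimates below 0 in the same comparison, with a median of -0.45, and 85.2% were lower without overlap. A gene symbol was known for 300 of the 743, with 280 below 0 and a median of -0.43. The rest are accessions to which the symbol rule of the members could not be applied. Under quantile normalization the median of the 743 was -0.04, beside -0.14 for the standard members. This group was defined after the data were seen, and the part of signal range in the members' difference was not tested further. Genes of macrophages and monocytes, several of which Sirpa-positive dendritic cells also express, were higher in Sirpa-positive immature cells in 16 of 16 cases. Over all genes, 7.21% were called higher there. The summed level of the 16 genes was 813 and 1141 times the array's 75th percentile against 17.43 and 18.04. Genes of dividing cells had summed levels of 127 and 172 against 202 and 217, with 1 of 25 called lower, beside 4.4% of all genes. The part of these genes in the members' difference was not tested, and in sorted bulk samples fewer cells of a type and less RNA per cell cannot be told apart.

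**Figure D3:**
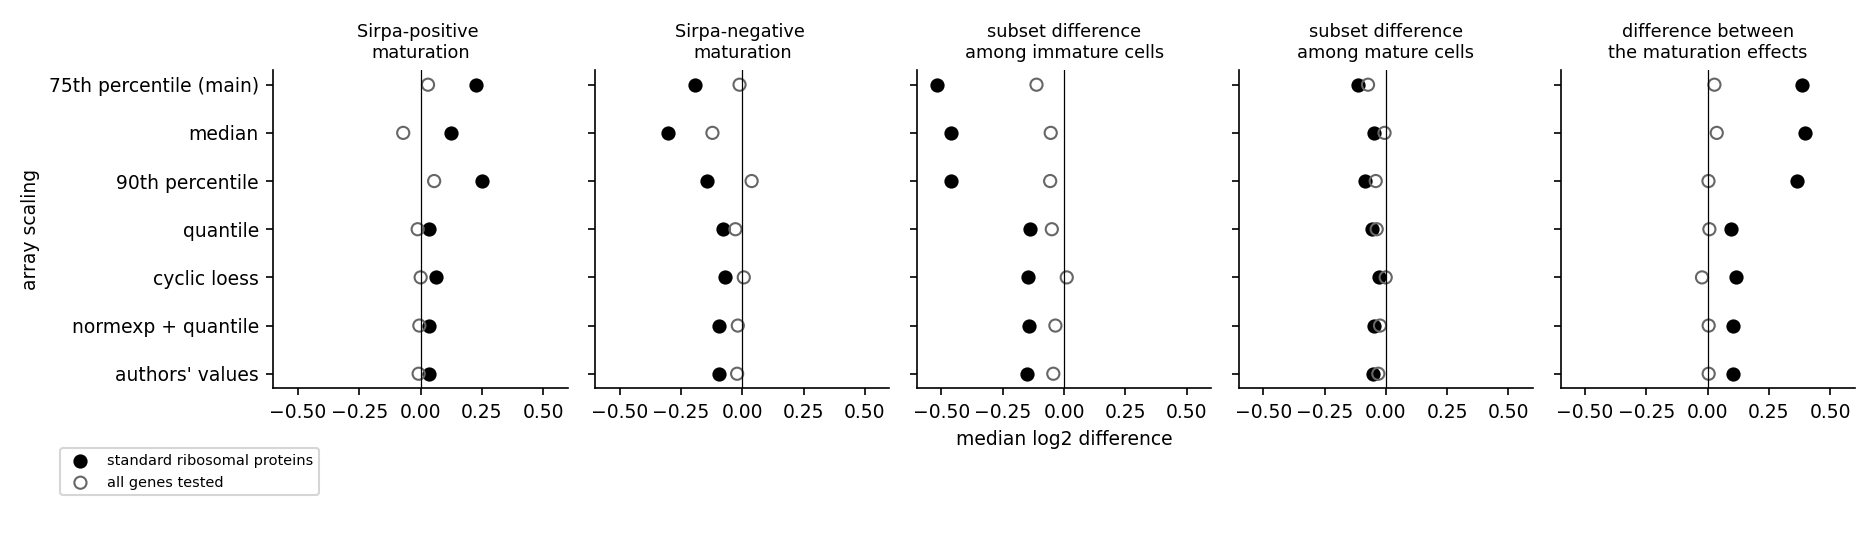
Median log2 difference of the 76 standard ribosomal protein genes (filled points) and of all genes tested (open points) in the 5 comparisons (panels), under 7 array scalings (y axis). In the immature subset comparison the members' median is -0.52 to -0.46 under the 3 scalings to a percentile and -0.15 to -0.14 under the 4 others, which include the authors' values.

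Maturation of Sirpa-positive cells was compared next. None (0) of the 76 standard members was called, where 4.36% of all genes were called higher and 2.52% lower, and 1 standard member had an unadjusted p under 0.05, against 4882 of all genes. Their median was 0.23 and 74 of 76 were above 0, beside a median of 0.03 over all genes and 0.23 over the 743 other bright genes. The estimate farthest from 0 was that of Rps27, which stood at 5.40 and 5.46 in immature and at 5.95 and 6.25 in mature cells, a difference of 0.67 ± 0.218 (limma adjusted p = 0.131). Rpsa followed the same order with 0.48 ± 0.225 (limma adjusted p = 0.297), and its groups did not overlap either.

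This median rested on array 6, the mature array with the lowest overall signal. Without array 6 it was -0.02, with 32 of 76 above 0, and without array 1 it was 0.44. Within the first slide row it was -0.10 and within the second, which holds array 6, 0.50. Rpl10 shows the gap, with 7.20 on array 1 and 8.31 on array 6, between which both immature arrays lay (7.37 and 7.54). Under quantile normalization, cyclic loess, normexp with quantile normalization and the authors' values the median was 0.03 to 0.06.

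Maturation of Sirpa-negative cells left the standard members with a median of -0.19, 63 of 76 below 0, and none (0) was called. The median of the 743 other bright genes was -0.17. Over all genes, 9.18% were called higher and 7.24% lower in this comparison, the highest shares of the 5, and 7205 genes but no standard member (0) had an unadjusted p under 0.05. Among those with the smallest p below 0 were Rps3a1 (-0.44 ± 0.209, limma adjusted p = 0.213) and Rpl4 (-0.48 ± 0.230, adjusted p = 0.219), and the estimates farthest above 0 were those of Rps19 (0.58 ± 0.257, adjusted p = 0.194), Rps27 (0.39) and Rpl39 (0.36). Rps19 stood at 3.45 and 3.17 in immature and at 4.04 and 3.74 in mature cells, so its groups did not overlap, yet the difference did not pass. The median was -0.09 in the first and -0.27 in the second slide row, and -0.10 to -0.07 under the 4 scalings that act over the whole signal range.

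Across the 76 standard members the maturation differences of the subsets, which share no array, correlated at a Pearson r of 0.61, and at 0.47 without the 2 members farthest from the median in Sirpa-positive cells. This is a correlation across genes, which share arrays and are not independent replicates, and it has no test. In 61 of the 76 the signs were opposite, since the 2 medians lie on opposite sides of 0. Rps27 and Rps19 were high in both subsets relative to the others.

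The subsets were also compared among mature cells. The standard members had a median of -0.12 (Sirpa-positive minus Sirpa-negative), 66 of 76 were below 0, and none (0) of the 86 members passed, where 3.39% of all genes were called higher and 2.1% lower. Without array 6 the median was -0.33 and without array 1 it was 0.06. It was -0.37 in the first slide row and 0.13 in the second, so its direction was not settled. For the difference between the maturation effects (Sirpa-positive minus Sirpa-negative) all 76 standard members had estimates above 0, with a median of 0.39, and the median of the 743 other bright genes was also 0.39. No gene of the whole array passed there (0% higher and 0% lower, with 1952 of the 24171 genes and none (0) of the 76 at an unadjusted p under 0.05). That median was -0.01 in the first slide row and 0.75 in the second, and 0.10 to 0.11 under the 4 scalings over the whole signal range.

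Of the members that passed a test, Rpl14 is a standard member and Rps27l, Rpl39l and Rpl3l are not. Rpl39l and Rpl3l were dim and were kept by the filter only through groups where they were high. With no filter on dim probes no member was called in any comparison. Rps27l, a paralog of Rps27 and a p53 target, stood at 5.503 and 5.473 in Sirpa-negative immature cells and at 6.791 and 6.363 in mature cells, and rose 2.13-fold (1.09 ± 0.224 on the log2 scale, limma adjusted p = 0.0180). In Sirpa-positive cells it stood at 4.993 and 5.198 before and at 5.803 and 6.001 after maturation, without overlap, and the difference of 0.81 ± 0.224 did not pass (limma adjusted p = 0.0861). The maturation differences of the subsets were not distinguished, their difference being -0.28 ± 0.317 with a 95% confidence interval from -1.03 to 0.46. Relative to the member median of each array the Sirpa-negative rise was 1.17 ± 0.227 (limma adjusted p = 0.0147). Over 22 alternatives this difference ranged from 0.87 to 1.30 and passed in 17, with adjusted p of 0.00182 to 0.0900. Among the settings that missed were leaving out array 4 (1.10, limma adjusted p = 0.0759), array 7 (1.07, adjusted p = 0.0752) or array 2 (0.87, adjusted p = 0.0900).

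Rps27 itself differed by 0.39 ± 0.218 in the same Sirpa-negative comparison (limma adjusted p = 0.284), with 6.17 and 5.90 in immature and 6.55 and 6.31 in mature cells. Both genes of the pair were thus higher on each mature array than on either immature array of their subset. Probe sequences were not used here, and how far a probe of one paralog reads the other was not tested.

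Rpl39l, a paralog of Rpl39 best known from testis, was dim and passed in both maturation comparisons. It was well above background on 5 of 8 arrays and passed the filter on dim probes only through the mature groups, where it is high, so these differences are a description of a gene kept for its level there. It stood at -5.30 and -4.64 in Sirpa-negative immature cells, where neither array was well above background, and at -2.64 and -3.03 in mature cells, so it rose at least 3.499-fold (fitted difference 2.13 ± 0.430, limma adjusted p = 0.0169). In Sirpa-positive cells it stood at -3.28 and -4.56, with 1 of 2 arrays above background, and at -1.86 and -1.94 after maturation, a fitted difference of 2.02 ± 0.430 (limma adjusted p = 0.0368). For the bound, each dim array was given the lowest signal found above background on it, or the signal of the probe where that was higher. The Sirpa-negative rise passed under 17 of 21 alternatives and missed without array 4 (1.81, limma adjusted p = 0.0853) or array 2 (1.94, adjusted p = 0.0960), with normexp and quantile normalization (0.49), and with no filter on dim probes. The Sirpa-positive rise passed under 8 of 21. It missed with quantile normalization, cyclic loess, normexp, the authors' values and slide row as a block. It also missed relative to the member median, with no filter on dim probes and with only the arrays compared. The Sirpa-positive rise was missed as well without array 1 (1.98), 5 (1.38) or 6 (2.06), and without array 2 or 8 of the other subset (2.02). Its estimate shrank to 0.57 with normexp and to 0.82 in the authors' values. Rpl39 differed by 0.36 ± 0.270 and 0.37 ± 0.270 in the Sirpa-negative and Sirpa-positive comparisons and was not called.

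Rpl3l, the striated muscle paralog of Rpl3, was the member called higher in Sirpa-positive immature cells. It was well above background on 3 of 8 arrays and passed the filter on dim probes only through the Sirpa-positive mature cells. It stood at -4.18 and -3.37 in Sirpa-positive immature cells, with 1 of 2 arrays well above background, and at -5.16 and -6.35 in Sirpa-negative immature cells, with none (0) above. The fitted difference was 1.98 ± 0.499 (limma adjusted p = 0.0456), and 2.57-fold against the lowest signal above background, which is no strict bound since 1 array of the brighter group was not measured above it. The call was lost with slide row as a block, normexp, the authors' values, no filter, trended variances and only the arrays compared. It was also lost without array 3 (2.39, limma adjusted p = 0.0914), 5 (1.57, adjusted p = 0.217) or 7 (1.38, adjusted p = 0.183), and without array 1 or 6 of the mature cells (1.98, adjusted p = 0.0717). Among mature cells it stood at -2.86 and -3.02 in the Sirpa-positive and at -4.48 and -5.51 in the Sirpa-negative subset. That difference of at least 3.78-fold (fitted 2.06 ± 0.499), in the comparison whose higher group carried the probe through the filter, did not pass (limma adjusted p = 0.0651), though it did relative to the member median (2.17 ± 0.456, adjusted p = 0.0368) and without array 4 or 7 (adjusted p = 0.0410). Rpl3 differed by -0.57 ± 0.217 among immature and by -0.17 ± 0.217 among mature cells.

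**Figure D4:**
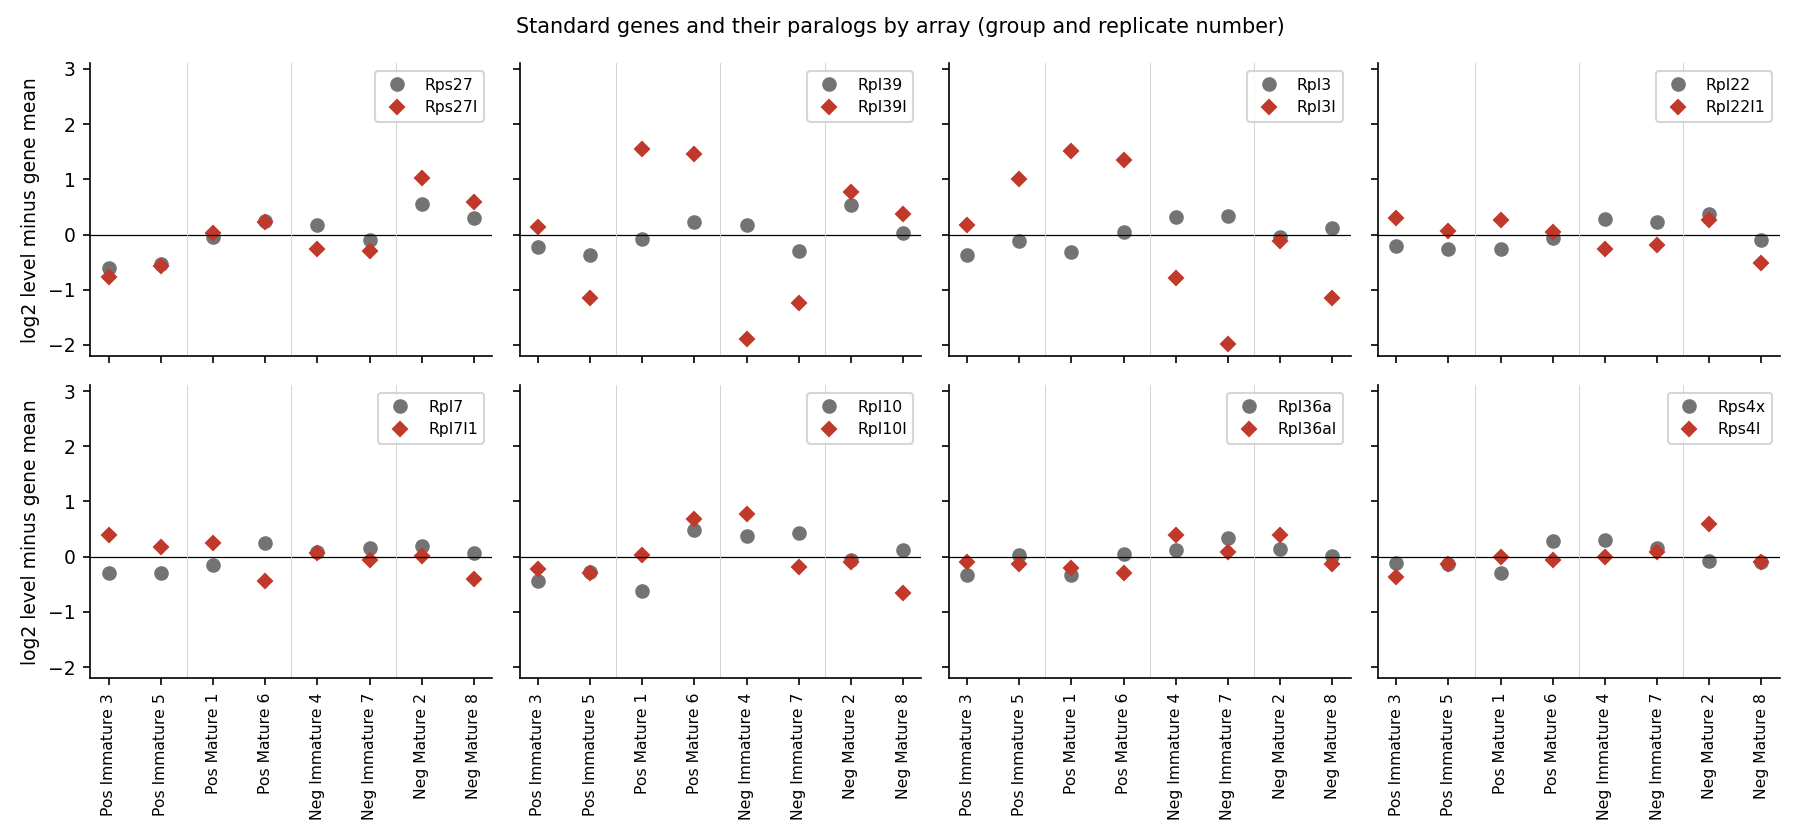
Log2 level minus the gene's own mean over the 8 arrays (y axis) for 8 standard genes (grey circles) and their paralogs (red diamonds), by array (x axis, group and replicate number). Rps27l is higher on the mature arrays of each subset, as is Rpl39l, and Rpl3l is higher on the Sirpa-positive arrays.

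The other related members did not pass in any comparison under the main settings. Rps23rg1, a retrogene of Rps23, stood at -1.20 and -0.56 in Sirpa-negative immature and at 0.11 and 0.45 in mature cells, and at -1.42 and -0.76 before and -0.33 and 0.08 after maturation in Sirpa-positive cells. Its differences were 1.16 ± 0.331 (limma adjusted p = 0.0541) and 0.97 ± 0.331 (limma adjusted p = 0.149), without overlap in either subset. The Sirpa-negative difference passed under 7 of 22 alternatives, among them the 90th percentile, cyclic loess, normexp and the authors' values (limma adjusted p of 0.0106 to 0.234), and the Sirpa-positive one under 1. Rps19bp1, which encodes a nucleolar partner of Rps19, stood at 0.37 and 0.69 in Sirpa-negative immature and at -0.82 and -0.16 in mature cells, a difference of -1.02 ± 0.325 (limma adjusted p = 0.0764) that passed under 4 of 22 alternatives, normexp among them (adjusted p of 0.0160 to 0.310). Rpl22l1, whose expression is repressed by Rpl22 in T cells, differed by 0.41 ± 0.285 between the immature subsets, while Rpl22 differed by -0.49 ± 0.224, in opposite directions with neither called. Rpl7l1, Rpl10l, Rpl36al and Rps4l gave no called difference either. Their estimates over the 5 comparisons lay between -0.67 and 1.28.

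Genes that share the members' function were read beside them. Fau and Rack1, which encode ribosomal proteins under other symbols, were not called in any comparison and had differences of -0.69 and -0.21 between the immature subsets, in the range of the members. Of 18 other translation genes, most of them also known as TOP transcripts, all 18 had estimates below 0 in that comparison (median -0.45). Among them 1 was called lower, where 4.4% of all genes were. This was Eef1b2, an elongation factor subunit (-1.03 ± 0.214, limma adjusted p = 0.0216), and its call was lost without array 3, 4, 5 or 7. In Sirpa-positive maturation all 18 were above 0 with a median of 0.24, which rested on array 6: without it 9 of 18 were below 0 and the median was -0.0013. Their median level was 5.67 on array 1 and 6.13 on array 6. Eif4a2, an RNA helicase of initiation, rose in both subsets (1.31 and 1.19 ± 0.225, limma adjusted p = 0.0182 and 0.0134). It was the 1 of 18 called higher in each, where 4.36% and 9.18% of all genes were. The Sirpa-positive call was lost without array 1, 3, 5 or 6 and the Sirpa-negative call without array 2, 4 or 7. Initiation factors had a median of -0.43 in Sirpa-negative maturation, and 5 of 32 fell, where 7.24% of all genes did. Among the 5 was Eif2b3 of the guanine nucleotide exchange factor for eIF2 (-1.40 ± 0.217, limma adjusted p = 0.00657). The count of 5 was 1 without array 2 or 4, 2 without array 7 and 3 without array 8.

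Ribosome biogenesis factors, which assemble the subunits in the nucleolus, moved apart from the ribosomal protein genes. In Sirpa-negative maturation 27 of 67 fell and 1 rose, where 7.24% of all genes fell and 9.18% rose, with a median of -0.78, whereas none (0) of the 76 standard members was called and their median was -0.19. Nolc1, a nucleolar chaperone, fell by 1.07 ± 0.185 on the log2 scale (limma adjusted p = 0.00984) and Gnl3, known as nucleostemin, fell by 1.39 ± 0.242 (limma adjusted p = 0.0101), while Sbds, which releases a factor from the nascent large subunit, rose by 1.18 ± 0.210 (limma adjusted p = 0.0112). In Sirpa-positive maturation their median was -0.36 with 61 of 67 below 0, none (0) fell and 1, Gnl2, rose, at 0.94 ± 0.220 (limma adjusted p = 0.0492), while 21 had an unadjusted p under 0.05. No biogenesis factor was called for the difference between the subsets' maturation effects (0 of 67, with 1 at an unadjusted p under 0.05). No gene of the whole array was called there either (0% higher and 0% lower), so this count cannot show that the effects were alike. The median of the 67 for that difference was 0.34, with 56 above 0. The count of 27 was 27 to 34 under the 6 other scalings of whole arrays. It was 9 relative to the member median, 18 with slide row as a block, 3 with only the 4 arrays compared or with dim probes kept, and 3 to 27 when 1 array was left out. The lowest of these came without array 7 (3), 2 (4) or 4 (5), and it was 17 without array 8 and 19 without array 3 or 5.

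Of 28 subunits and factors of RNA polymerases I and III, which transcribe ribosomal RNA and other small RNAs, 10 fell and 1 rose in Sirpa-negative maturation. Over all genes, 7.24% fell and 9.18% rose there. Polr1a, the catalytic subunit of polymerase I, fell by 1.89 ± 0.230 on the log2 scale (limma adjusted p = 0.00271), and by 1.37 ± 0.230 in Sirpa-positive maturation (limma adjusted p = 0.0166). Left-out arrays gave 1 to 8 subunits lower in place of 10, with 1 without array 2, 2 without array 4, 4 without array 7 and 5 without array 8. The mitochondrial ribosomal protein genes, a separate set made for the mitochondrial ribosome, had 11 of 77 lower and 4 of 77 higher, against the same shares of all genes, with a median of -0.41 in the same comparison. Leaving out array 2 or 4 gave 2 lower, array 3, 5 or 7 gave 5, and array 8 gave 6. Of the 25 regulators listed, 4 fell and 2 rose in Sirpa-negative maturation, where 7.24% of all genes fell and 9.18% rose. Among the 4 was Myc, a transcription factor that drives ribosome production (-2.76 ± 0.359, limma adjusted p = 0.00343). Mxd1, an antagonist of Myc, was among the 2 that rose (3.77 ± 0.347, limma adjusted p = 0.00101). In Sirpa-positive maturation 2 of the 25 fell and 2 rose, beside 2.52% and 4.36% of all genes. Mxd1 rose there by 3.36 ± 0.347 (limma adjusted p = 0.00321) and Myc differed by -0.91 ± 0.359 (limma adjusted p = 0.209). The part of these regulators in the values of the other lists was not tested. Genes of dividing cells were lower in 15 of 25 cases in Sirpa-negative and in 13 of 25 in Sirpa-positive maturation. The shares of all genes called lower were 7.24% and 2.52%. Genes of T cells, the main cells of the thymus, were higher in 17 and 8 of 25, beside 9.18% and 4.36% of all genes. The summed level of the T cell genes went from 41.7 and 52.7 to 95.7 and 115 times the 75th percentile in Sirpa-negative cells. Cd8a was the brightest gene of the list on each of these arrays, but the rise of the sum was not its alone. Tcf7 moved farther, from 0.93 and 0.68 on immature arrays 4 and 7 to 4.77 and 4.10 on mature arrays 2 and 8. Cd8a stood at 4.83 and 3.88 on immature arrays 4 and 7 and at 5.35 and 4.62 on mature arrays 2 and 8. The list's median level went from -0.81 and -0.77 to 0.25 and 0.61 on the same arrays. How far the sorted dendritic cells themselves express these genes was not tested. The part of either list in the members' values was not tested.

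**Figure D5:**
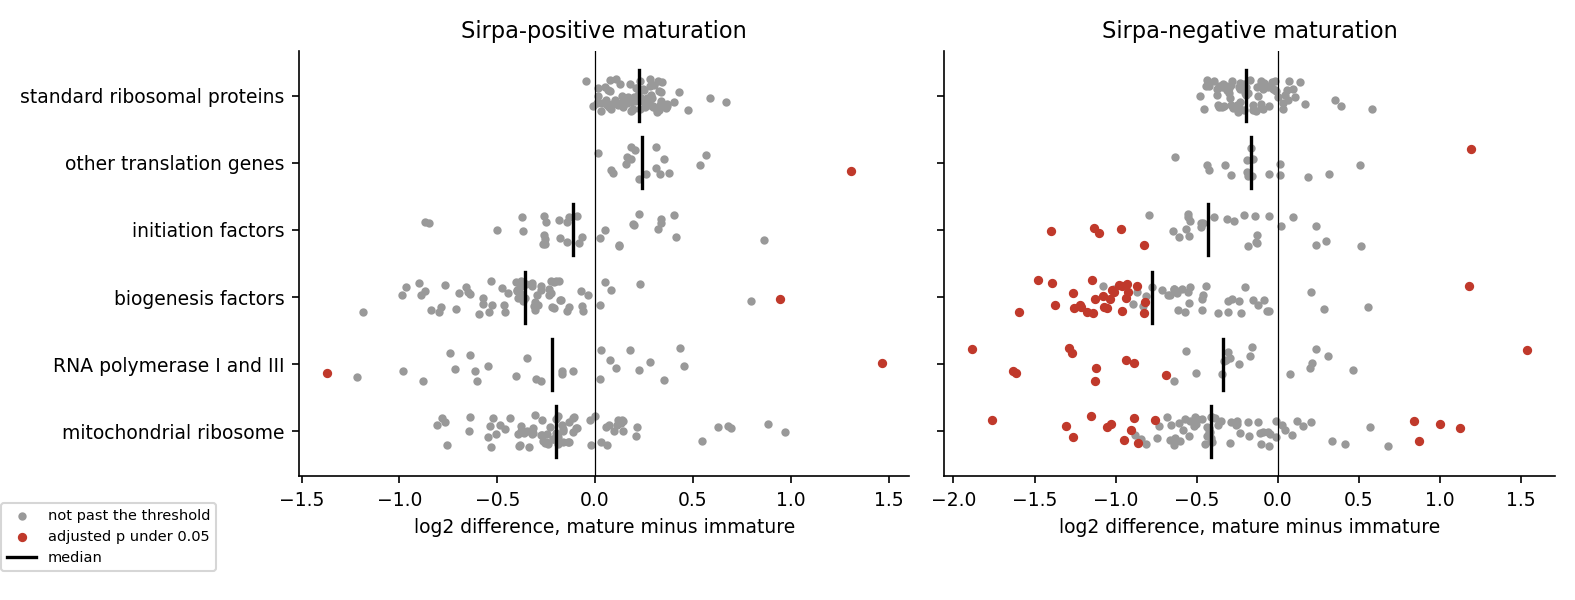
Log2 difference, mature minus immature, of single genes (points) in 6 groups (y axis) for the Sirpa-positive (left) and Sirpa-negative (right) subset. Red points passed the test (limma adjusted p under 0.05) and black bars are medians. The standard ribosomal proteins have no red point in either panel, whereas 27 biogenesis factors are red below 0 on the right.

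Several probes were kept for 50 of the 86 members, and the brightest stood for the gene. All probes of a gene had the same sign in 44 of these 50 for the immature subset comparison, 47 for Sirpa-positive and 38 for Sirpa-negative maturation, 40 for the mature subset comparison and 42 for the difference between the maturation effects. Ribosomal protein genes have many near-identical processed copies in the genome, and how far these were read by the same probes was not tested.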

How the data were processed

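The deposited scanner files hold 1-colour intensity values, per the file headers from Feature Extraction 10.7.3.1, where the submitters' processing notes name version 10.5 and limma. The deposited value table holds log2 values of the authors, whose column medians ran from 5.99 to 6.01. Its sorted columns differed by at most 0.1264, so the arrays share nearly the same distribution of values, as quantile normalization leaves them. The authors' values are therefore not a scaling independent of the quantile settings. The method itself is not given in the sources used here. Levels were log2 of the processed intensity minus the array's 75th percentile, with outlier spots set to missing. Probes were retained when both arrays of 1 or more groups read them as well above background (33715 of 55681 probes, of which 26582 had a gene symbol). The brightest kept probe, by its mean over arrays, stood for a gene.

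Differences were fitted on 4 group means over all 8 arrays with limma 3.58.1 in R 4.3.3 (4 residual and 3.26 prior degrees of freedom), with Benjamini-Hochberg adjustment over 24171 genes and a threshold of 0.05. The script was tested on simulated data. Members with the smallest p were named per comparison, up to 8 per direction where called and 4 otherwise, with a fixed set of core proteins and paralogs. The members and lists were chosen with earlier results of these data known. The scanner files used here have no mean signal column, so normexp (offset 50) was run on the median signal and median background. The number of arrays limits the precision. Alternatives covered the scaling, the filter, the probe rule, blocks for slide row and for title numbers, the variance model and each array left out. A few genes are not reported here.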

Additional observations from a re-analysis of the deposited data

Results flagged for a closer look

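In 3 of the named members the estimates of matched comparisons lay on opposite sides of 0 in every array, and the test of the difference itself did not pass. Members that were not named were not searched for this. Rpl10l, a testis paralog of Rpl10, differed between the subsets by -0.55 in immature and by 0.73 in mature cells (limma adjusted p = 0.617 for the difference). Rpl21 differed with maturation by 0.20 in Sirpa-positive and by -0.43 in Sirpa-negative cells, and between the subsets by -0.19 in immature and by 0.43 in mature cells (limma adjusted p = 0.708). These values rest on 1 of 2 probes: the other gave 0.83 in Sirpa-negative maturation and 0.46 between the immature subsets, and -0.28 against 0.63 for the difference between the maturation effects. The probe used for Rpl21 was also dim, with group means from -2.54 to -2.11. The array medians of the standard members were 6.26 to 6.86. Rpl29 differed with maturation by 0.28 in Sirpa-positive and by -0.33 in Sirpa-negative cells (limma adjusted p = 0.704). Of the 76 standard members, 61 had maturation estimates of opposite sign in the subsets.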

How the results depend on the processing

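No paired analysis was possible because the groups share no replicate number in the labels, while slide row, which holds 1 array of each group, and sets of title numbers were fitted as batch blocks. Among the named members' values under all alternatives, 3161 kept their direction and side of the threshold, 51 lost and 25 gained a call, and none (0) of the called values turned. Over all 86 members the median difference was 0.23 and -0.18 for Sirpa-positive and Sirpa-negative maturation, -0.47 and -0.11 for the subsets among immature and mature cells, and 0.36 for the difference between the maturation effects. With quantile normalization, cyclic loess, normexp with quantile and the authors' values, the Sirpa-positive maturation median was 0.035, 0.071, 0.045 and 0.046, the immature subset median -0.14, -0.14, -0.15 and -0.15, and the difference between the maturation effects 0.089, 0.087, 0.10 and 0.10. Members called in Sirpa-positive maturation went from 1 to 0 under these 4, centring on the members, no filter on dim probes, probes above background on all 8 arrays, slide row as a block, only the arrays compared and standard members only, and to 2 with the title numbers as a block or with trended and robust variances. In Sirpa-negative maturation the count of 2 became 0 with no filter or standard members only, 1 with only the arrays compared, 3 with the 90th percentile, cyclic loess, normexp, the authors' values and probes above background on all arrays (Rps23rg1, Rps19bp1 or both gained), and 4 with the title numbers as a block or trended variances. Between the immature subsets the count of 2 became 0 with normexp, the authors' values, no filter, slide row as a block and only the arrays compared, 4 with trended variances, and 1 with the array median, quantile, cyclic loess, centring, probes above background on all arrays, the mean of probes, every probe singly and standard members only. Between the mature subsets the count of 0 became 1 (Rpl3l) with the array median, quantile, cyclic loess, centring and only the arrays compared. Leaving out 1 array gave counts of 0 to 1, 0 to 2, 0 to 2, 0 to 1 and 0 to 0 in the order of the medians above, and medians of -0.018 to 0.44, -0.24 to -0.11, -0.54 to -0.42, -0.32 to 0.064 and 0.15 to 0.59. The lone array left in a group was then assumed to vary like the others. The lowest and highest of the Sirpa-positive maturation, mature subset and difference medians came from leaving out Sirpa-positive mature arrays 6 and 1. The causes were not tested. Rpl39l and Rpl3l lay near background in part of the groups, so their fitted folds there are uncertain.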
